A study of Drosophila melanogaster with 4 samples.

Results

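The regions described here are the enriched clusters of Su(var)3-7 in the centromere-proximal 4 Mb of the X arm of *Drosophila melanogaster*, from X 18422828 to the end of the assembled arm at X 22422827 on FlyBase release 5. A cluster was taken by its start position alone, and its measured value did not enter the rule. The window was nonetheless chosen with earlier results of these data known. Of the 11471 enriched clusters in the list of the replicate set, 403 were members. The same limit took 188 of 5994 clusters in the list of replicate 1 and 191 of 5617 in that of replicate 2. These rows show how far each member was supported by a single library.

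The study mapped Su(var)3-7 by chromatin immunoprecipitation and sequencing (ChIP-seq) with an antibody named Q3448. Nuclei came from third-instar larvae of the strain Oregon-R, which is wild type and carries no mutant allele or treatment per the labels. There were 2 ChIP libraries and 2 input libraries, and each input shares its replicate number with a ChIP library. The tissue was whole larvae with no sort, and the labels used here do not name the sex of the larvae. They also do not state whether the libraries were made from separate batches of larvae, so each SD may reflect technical spread only.

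Su(var)3-7 binds DNA through zinc fingers and, in heterochromatin, partners HP1, the reader of methylated histone H3 lysine 9. Its gene was found through mutations that weaken the silencing of a gene placed beside heterochromatin, and the classical test for this is an X inversion that brings *white* next to the pericentric heterochromatin of X. The proximal X is thus the stretch of the arm that runs towards the heterochromatin used in that test. It is also known for *flamenco*, a source of piRNAs that silence transposons. Genes under the clusters were not assigned, because the gene table used here is on release 6 and the lists are on release 5, and no sequence is printed for the same reason.

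Each cluster has a deposited value, which is the authors' own enrichment of ChIP over input and is read as a log2 value, so that 1 stands for 2-fold. The lists hold no read counts, so the depth behind every value is unknown. Values of the replicate-set list have no SD, because it combines both libraries. With 2 replicates the smallest two-sided p of an exact paired test is 0.5, and none was run. Differences are set against the spread between the replicates instead.

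The proximal 4 Mb of X was more densely covered by Su(var)3-7 clusters than the rest of the arm, in both replicates. Clusters lay over 13.6% of its bases in replicate 1 and 13.1% in replicate 2, against 7.57% and 6.93% of the other 18.4 Mb of X. The mean was 13.3% ± 0.33 in the proximal window and 7.25% ± 0.45 in the rest (SD, n = 2). The ratio of cover was 1.84 ± 0.07 (SD, n = 2), and the lowest proximal value lay above the highest value of the rest. Clusters covered 543 kb of the window in replicate 1 and 525 kb in replicate 2.

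The excess lay in the number of clusters more than in their size. The window held 47.0 and 47.8 clusters per Mb in replicates 1 and 2, against 30.02 and 29.8 per Mb in the rest of X, a ratio of 1.58 ± 0.03 (SD, n = 2). The median cluster was 2069 bp wide in replicate 1 and 2051 bp in replicate 2, against 1915 and 1945 bp in the rest, a ratio of 1.07 ± 0.02 (SD, n = 2). Wide clusters took a larger share of the proximal list: 21 of 188 clusters (11.2%) and 19 of 191 (9.95%) were at least 5 kb wide, against 6.69% and 4.19% in the rest of X. Over all sequences, 14.5% of clusters were that wide in replicate 1 and 13.9% in replicate 2, so the proximal shares lay above the rest of X and below the whole lists.

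Enrichment within clusters was slightly higher in the window than in the rest of the arm, in both replicates. The median log2 value was 0.76 in replicate 1 and 0.77 in replicate 2 in the proximal window, against 0.70 and 0.71 in the rest. The difference was 0.062 ± 0.0078 (SD, n = 2), small in size but larger than the spread between the replicates. Values of at least 1 were held by 34 proximal clusters in replicate 1 (18.1%) and 35 in replicate 2 (18.3%), against 11.2% and 14.8% in the rest of X. Over the whole lists these shares were 27.1% and 30.6%. The window did not hold the strongest sites of the arm in either replicate: its highest values were 2.22 and 2.10, and those of the rest of X were 2.71 and 3.01. In the replicate-set list the order was the other way, with 3.37 in the window and 2.85 in the rest of X, and that 3.37 belonged to a cluster found in neither replicate.

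Along X the window also stood above each of the next 4 stretches of the same length, taken from the proximal end outward. The stretch from 4 to 8 Mb was 7.53% covered in replicate 1 and 7.88% in replicate 2. The next, from 8 to 12 Mb, was 4.48% and 4.24% covered, that from 12 to 16 Mb 6.20% and 5.74%, and that from 16 to 20 Mb 6.04% and 5.59%. The replicates differed by at most 0.47 percentage points in any of the 5 stretches, while the first stretch exceeded the next by 6.06 points in replicate 1 and 5.23 in replicate 2. Median log2 values in the 4 outer stretches lay between 0.66 and 0.72.

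The same window was measured on 3R, 2L and 3L, and among these 4 arms the proximal X was the least covered. The arm 2R was not used here. The proximal 4 Mb of X had 13.3% ± 0.33 of its bases under clusters, against 19.05% ± 4.42 on 3R, 32.0% ± 2.37 on 2L and 40.3% ± 2.17 on 3L (SD, n = 2 each). X and 3R were the closest pair, and replicate 2 of 3R (15.9%) lay near the X values. The gaps to 2L and 3L were several times the spread between replicates. Median enrichment did not follow this order: it was 0.77 ± 0.01 on X, 0.63 ± 0.0042 on 3R, 0.70 ± 0.01 on 2L and 0.79 ± 0.02 on 3L (log2, SD, n = 2 each). Clusters on X were narrower than on 2L and 3L, with a median of 2060 bp ± 12.7 on X, 2110 bp ± 36.4 on 3R, 2606 bp ± 39.2 on 2L and 2624 bp ± 89.1 on 3L (SD, n = 2 each). How far each assembled arm stops short of its centromere was not tested.

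**Figure D1:**
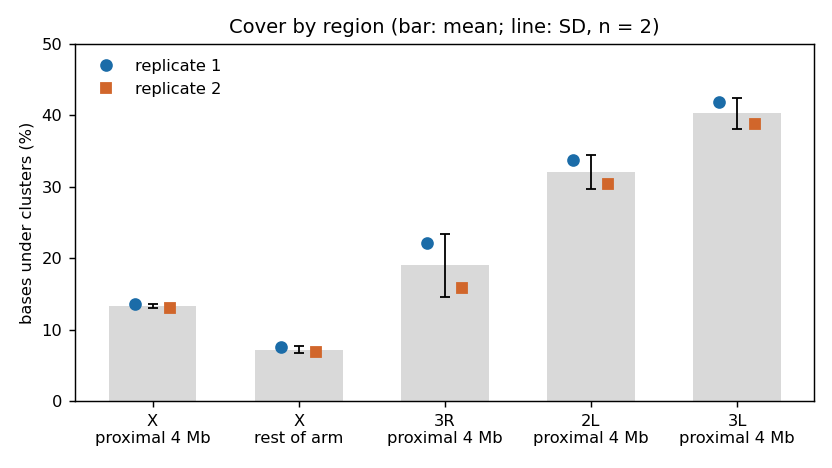
Percent of bases under clusters (vertical axis) in the proximal 4 Mb of X, in the rest of the X arm and in the proximal 4 Mb of 3R, 2L and 3L. Circles are replicate 1, squares replicate 2, bars the mean and lines the SD of the 2 replicates. The proximal X lies at 13.6% and 13.1%, above the rest of X and below the other proximal windows.

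Cover did not decline evenly away from the proximal end. In 250 kb windows taken from the end outward, the first was 22.1% covered in replicate 1 and 19.1% in replicate 2, and the second 9.05% and 10.6%. The window from 0.5 to 0.75 Mb was 26.2% and 24.5% covered and that from 0.75 to 1 Mb 31.1% and 30.5%. That stretch was the most covered of the 16 in both replicates. The window from 1 to 1.25 Mb had 11.8% in replicate 1 and 17.0% in replicate 2, and was where the replicates differed most.

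Cover then dropped to the level of the rest of the arm and below it. The window from 1.25 to 1.5 Mb was 7.88% and 7.15% covered, near the 7.57% and 6.93% of the rest of X. That from 1.5 to 1.75 Mb had 2.07% and 0.63%, and that from 1.75 to 2 Mb 3.42% and 2.35%. These 2 windows were the least covered of the 16 and lay below the cover of the rest of X in both replicates. They held 6 clusters together in replicate 1 and 3 in replicate 2. From 2 to 2.75 Mb cover lay between 5.58% and 8.20%, near the level of the rest of the arm. That level is a mean over the whole rest of X, which was not measured in 250 kb windows. How unusual a single window is for the arm was therefore not tested.

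Farther out, cover was high again. The windows from 2.75 to 3 Mb (19.3% and 16.5%) and from 3 to 3.25 Mb (17.5% and 16.8%) had more than 2-fold the cover of the rest of X. Those from 3.25 to 3.5 Mb (7.88% and 9.13%) and from 3.5 to 3.75 Mb (13.5% and 10.2%) were lower. The outermost window, from 3.75 to 4 Mb, reached 24.4% and 23.5%, above the window next to the proximal end. The position limit at 4 Mb thus lay beside one of the most covered windows. Over the 16 windows the replicates had Pearson's r of 0.97 and Spearman's rho of 0.95, as a description: the windows share libraries and mappable sequence and are not independent.

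**Figure D2:**
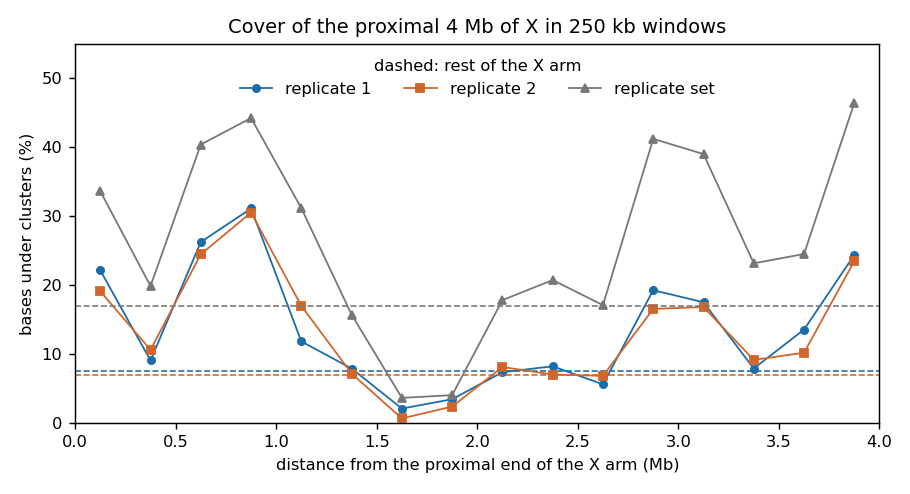
Percent of bases under clusters (vertical axis) in 16 windows of 250 kb against distance from the proximal end of the X arm in Mb (horizontal axis), for replicate 1, replicate 2 and the replicate-set list. Dashed lines are the values of the rest of the X arm in the same list. The replicates share a peak of 31.1% and 30.5% between 0.75 and 1 Mb and a low of 2.07% and 0.63% between 1.5 and 1.75 Mb. Most windows beyond 2.75 Mb are high again.

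The covered stretch from 0.5 to 1.25 Mb and that from 2.75 to 4 Mb differed in enrichment as well as in position. The bounds of these stretches were chosen after the profile had been seen, and the values are descriptions. Between 0.5 and 1.25 Mb from the end the median log2 value was 0.98 in replicate 1 and 0.86 in replicate 2. Between 2.75 and 4 Mb it was 0.71 and 0.76, although that stretch held more clusters (78 and 76, against 51 and 56). The inner stretch of 0.75 Mb held 24 of the 34 proximal clusters with a value of at least 1 in replicate 1, and 23 of 35 in replicate 2. The outer stretch of 1.25 Mb held 4 and 6. The 0.5 Mb next to the end was covered to 15.2% ± 0.53 (SD, n = 2). Its medians were 0.76 and 0.77, and it held 4 and 3 clusters with a value of at least 1.

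The low stretch was also low in number rather than in value. Between 1.25 and 2 Mb there were 12 clusters in replicate 1 and 9 in replicate 2, with medians of 0.74 and 0.73, near those of the outer stretch. Cover was 3.92% ± 0.76 there, against 23.5% ± 0.66 in the inner covered stretch and 15.9% ± 0.91 in the outer one (SD, n = 2 each). The longest stretch free of clusters in the window lay here in all 3 lists. It ran from X 20632621 to 20901206 in replicate 1 (269 kb), from X 20632676 to 20910613 in replicate 2 (278 kb), and from X 20664269 to 20901162 in the replicate-set list (237 kb). Replicate 2 had a second gap of nearly the same length, from X 19784595 to 20060605 (276 kb), whose right-hand 141 kb was also free in replicate 1. Another gap of replicate 2, from X 21047126 to 21192203, matched a gap of replicate 1 to within 59 bp at both edges (145 kb in each). In the replicate-set list the next longest were X 20397202 to 20528516 (131 kb) and X 18923802 to 19037381 (114 kb). The rest of X held longer gaps, up to 505 kb in replicate 1, 605 kb in replicate 2 and 252 kb in the replicate-set list. Typical gaps were shorter in the window, with medians of 5202 bp in replicate 1 and 4822 bp in replicate 2, against 8665 and 10700 bp in the rest.

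The member with the highest replicate-set value among those found in both replicates bordered the longest gap of both replicate lists. It was X 20630483 to 20632659, a site of 2177 bp with a log2 value of 1.73 in the replicate-set list, 1.36 in replicate 1 and 2.10 in replicate 2. In the replicate-set list 1 more member, X 20663171 to 20664268, lay between it and the gap. The site lay 1.79 Mb from the proximal end, and its value was the highest of any proximal cluster in replicate 2. The difference of 0.74 between the replicates was the largest of all proximal pairs that overlapped one to one. The edges of the site lay within 55 bp of each other in the replicates, and clusters covered 96.8% of it in replicate 1 and all of it in replicate 2.

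Of the 10 highest members found in both replicates, 8 lay in the first 1.1 Mb from the end, a distance not fixed in advance. Of all 118 members found in both, 16 lay within 0.5 Mb of the end and 35 between 0.5 and 1.25 Mb. The second of the 10 was X 21626828 to 21632434, with 1.50 in the replicate-set list, 1.28 in replicate 1 and 1.76 in replicate 2. X 21581754 to 21586131 followed with 1.45 (1.54 and 1.35), then X 21493605 to 21501745 with 1.41 (1.47 and 1.38) and X 21593602 to 21602509 with 1.40 (1.37 and 1.43). These 4 sites lie within 139 kb of one another. In the last 2 the replicates differed by under 0.1. In each of the 4, clusters of either replicate covered between 73.4% and 99.3% of the member.

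The sixth, X 19642599 to 19649638, was the only other member of the 10 beyond 1.1 Mb, with 1.30 over 7.04 kb (1.54 in replicate 1 and 1.14 in replicate 2). X 22225656 to 22237328 had 1.25 over 11.7 kb, with 1.27 and 1.24 in the replicates. It was among the 10 highest and also among the 10 widest, and clusters covered 99.01% of it in replicate 1 and 99.93% in replicate 2. X 21403124 to 21405524 had 1.24 (1.18 and 1.37). X 22082928 to 22087017 also had 1.24, although both replicates gave it higher values, 1.79 and 1.84, over narrower clusters. X 21796482 to 21800528 completed the 10 with 1.17 and was split into a pair of clusters in replicate 1, of which the higher had 1.47, and covered to 35.9% in replicate 2 by a single cluster at 1.60.

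The inner covered stretch held 5 of the 10 widest members and 89 of all 403 members. The widest was X 21854390 to 21870214, at 15.8 kb and a log2 value of 1.00. It was a single cluster of 14768 bp in replicate 1, which was the widest proximal cluster of that replicate, and 2 clusters in replicate 2. X 21841300 to 21853643 lay directly before it (12.3 kb, 0.75) and X 21875077 to 21886659 after it (11.6 kb, 0.98). Together with 1 narrower member these formed a run of 45.4 kb in which no gap reached 2 kb and 92.0% of the bases were covered. This was the longest such run of members, by a gap rule chosen after the data had been seen. Runs of 43.3 kb (X 22225656 to 22268981, 85.2% covered) and 41.2 kb (X 21460509 to 21501745, 91.3% covered) came next.

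The others of the 10 widest included weaker and less complete members. X 20933470 to 20946021 spanned 12.6 kb at 0.66, and replicates divided it into 2 and 3 clusters. X 21220583 to 21232355 (11.8 kb, 0.67) was covered to 58.3% and 64.6% by the replicates. X 19282975 to 19294512 (11.5 kb, 0.73) lay in the outer covered stretch, where replicate 1 gave 2 clusters and replicate 2 a single one of 0.99. X 22246437 to 22256311 (9.88 kb, 0.88) and X 21471613 to 21481309 (9.70 kb, 0.84) were covered to more than 80% by both. The tenth, X 18521206 to 18530556 (9.35 kb, 1.08), lay 3.89 Mb from the end. Clusters covered 98.03% of it in replicate 1 at a value of 1.04, but only 51.7% in replicate 2, where one of its 2 clusters reached 1.88.

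Clusters came close to the end of the assembled arm. The last member, X 22410165 to 22416866, ended 5.96 kb before it and had 0.95 in the replicate-set list, 1.13 in replicate 1 and at most 0.87 in replicate 2. The next inward, X 22391776 to 22398731 (0.82) and X 22385725 to 22389041 (0.54), were also found in both replicates. X 22383840 to 22384908 (0.46) was found in neither, and X 22373745 to 22376810 (1.13) in replicate 1 only. At the other bound, the first member inside the limit was X 18423458 to 18429950, with 0.70 over 6493 bp. The last cluster outside it was X 18412704 to 18415974, with 1.02 over 3271 bp. Both were found in both replicates.

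**Figure D3:**
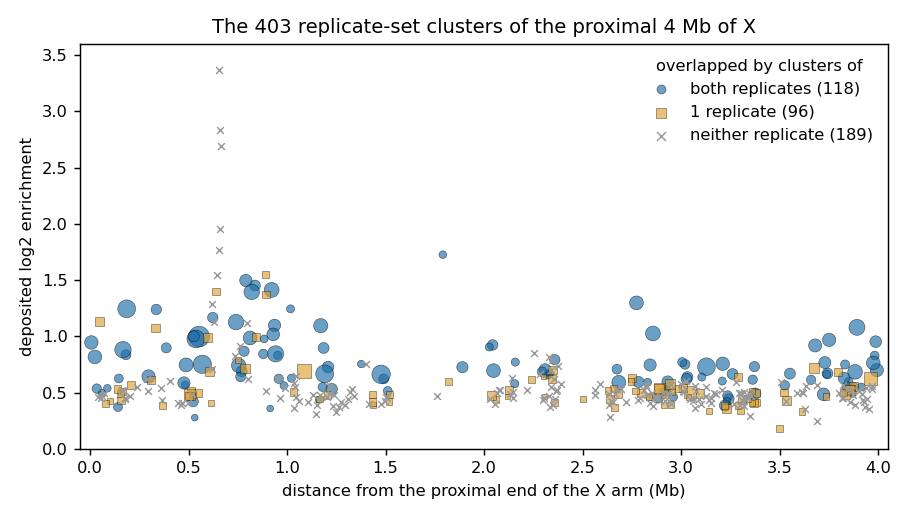
Deposited log2 enrichment (vertical axis) of each of the 403 replicate-set members against its distance from the proximal end of the X arm in Mb (horizontal axis). Circles overlapped clusters of both replicates (118), squares those of 1 replicate (96) and crosses those of neither (189), and the area of circles and squares grows with width. Values over 1.75 are held only by crosses near 0.65 Mb, with a top value of 3.37.

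The support of members by the replicates was close to that of the whole list. Clusters of both replicates overlapped 118 of the 403 members by at least 1 bp, or 29.3% (95% exact binomial interval 24.9 to 33.99%), against 30.7% of all clusters of the replicate-set list. On the rest of X the share was 22.1% (19.97 to 24.5%). A further 96 members (23.8%, against 25.3% over the whole list) overlapped clusters of 1 replicate, 51 of them only in replicate 1 and 45 only in replicate 2. The other 189 (46.9%) overlapped none, against 44.1% over the whole list. Clusters are not independent samples, and the replicate-set list rests on the libraries it is set against here, so the intervals describe counting error only.

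Members found in both replicates carried most of the covered bases. They spanned 571 kb, or 54.1% of the bases of the members, against 60.9% over the whole list and 42.7% on the rest of X. Their medians were 4082 bp in width and 0.69 in log2 value. Members found in 1 replicate had medians of 1977 bp and 0.50, and those found in neither had 1286 bp and 0.48. Support was bound up with width. None of the 106 members narrower than 1301 bp was found in both, and 100 of them (94.3%) were found in neither. On the rest of X 0 of 384 such clusters were found in both and 90.6% in neither. No proximal cluster of either replicate list was narrower than 1303 bp. Of the 126 members of 1301 to 1999 bp, 4 were found in both (3.17%, against 4.53% on the rest of X). Of the 128 members of 2000 to 4999 bp, 74 were (57.8%, against 49.3% on the rest of X). Of the 43 members of at least 5 kb, 40 were found in both and the other 3 in 1 replicate (93.02% in both, against 93.1% on the rest of X).

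**Figure D4:**
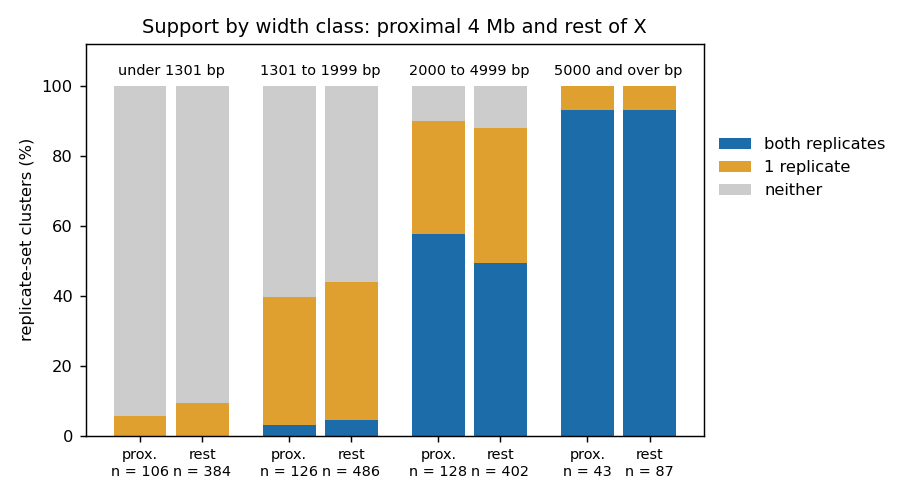
Percent of replicate-set clusters (vertical axis) overlapped by clusters of both replicates, of 1 or of neither, in 4 width classes, for the proximal 4 Mb (left bar of each pair) and the rest of the X arm (right bar). In the proximal window the share found in both is 0% below 1301 bp and 93.02% from 5000 bp. On the rest of X these shares are 0% and 93.1%. The n gives the clusters in each bar.

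Support was uneven along the window. It was highest from 0.75 to 1 Mb, where 18 of 30 members (60.0%) were found in both replicates. It was lowest from 2.5 to 2.75 Mb, where 2 of 21 were (9.52%). The median member was 2907 bp wide in the former window and 1589 bp in the latter. Support along the window was not compared at equal width. Over the inner covered stretch 35 of 89 members were found in both, over the low stretch 6 of 26, and over the outer covered stretch 49 of 175. Members found in neither numbered 36 of 89 in the inner covered stretch, 14 of 26 in the low stretch, 39 of 68 from 2 to 2.75 Mb and 82 of 175 in the outer covered stretch. In the outermost window 14 of 40 members were found in both (35.0%), close to the 35.7% of the window next to the proximal end. Over the whole list 30.7% of clusters were found in both and 44.1% in neither.

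Overlap of the replicates was also measured in bases. Those under clusters of both replicates made up 55.8% of those under either in the proximal window (382 of 686 kb), against 42.7% in the rest of X. Within the window the value was 64.8% in the inner covered stretch and 66.2% in the 0.5 Mb next to the end. It was 59.7% in the low stretch from 1.25 to 2 Mb, 45.0% from 2 to 2.75 Mb and 47.4% in the outer covered stretch. The order of the stretches was not that of the share of members found in both. In replicate 1, 134 of the 188 proximal clusters (71.3%) met one of replicate 2, against 69.4% over the whole list. In replicate 2, 137 of 191 (71.7%) met one of replicate 1, against 74.2%. On the rest of X these shares were 58.2% and 62.7%.

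Clusters seen in a single replicate were weaker and narrower. In replicate 1 the medians of the 134 overlapped clusters were 0.79 (log2) and 2496 bp, and the 54 others had 0.69 and 1636 bp. In replicate 2 the 137 overlapped clusters had 0.80 and 2407 bp, and the 54 others had 0.70 and 1650 bp. A wider cluster meets the overlap rule more often by position alone, and values were not compared at equal width. Some single-replicate clusters were strong. The highest proximal cluster of replicate 1, X 21530913 to 21533064 at 2.22, had no counterpart in replicate 2. Nor had its neighbour X 21528566 to 21529964, at 1.72. X 21781847 to 21783758 (1.80) and X 21841310 to 21842669 (1.70) in replicate 2 had none in replicate 1.

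In the 106 proximal pairs with a single partner in each replicate, the values of the replicates had Pearson's r of 0.78 and Spearman's rho of 0.69. These are across clusters of the same libraries and are a description. The median of the absolute difference was 0.10 on the log2 scale and the ninetieth percentile 0.27. Replicate 2 was higher in 53 of the 106 pairs, so neither library gave higher values throughout the window. On the rest of X there were 278 pairs with r of 0.69 and rho of 0.55, and the median absolute difference was 0.12. Replicate 2 was higher in 162 of those 278. Of the 106 proximal pairs, 2 differed by over 0.5, against 25 of the 278. The 2 proximal pairs were the site that borders the longest gap of the replicates and the pair at X 21233425 to 21237162. The latter had 1.22 in replicate 1 and 0.70 in replicate 2.

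**Figure D5:**
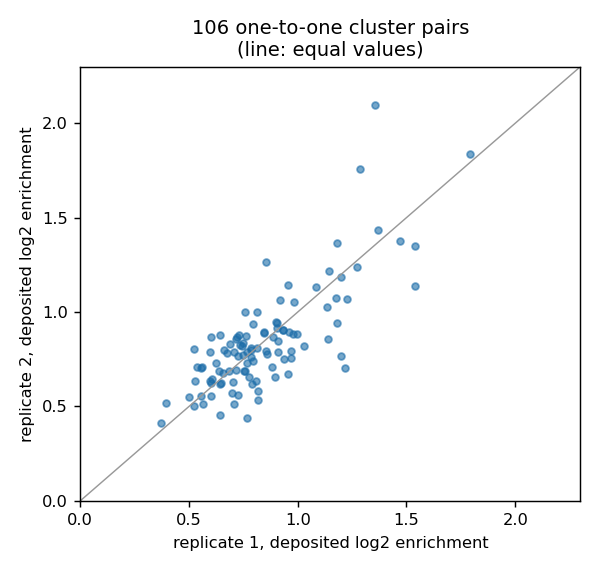
Deposited log2 enrichment in replicate 2 (vertical axis) against replicate 1 (horizontal axis) for the 106 proximal cluster pairs that overlap one to one. The line marks equal values, and the point farthest from it, at 1.36 and 2.10, is X 20630483 to 20632659.

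The replicate-set list kept nearly every proximal cluster of the replicates. All 188 of replicate 1 and 189 of 191 of replicate 2 overlapped a cluster of that list. On the rest of X nearly all did as well, 540 of 553 and 539 of 549. The replicate-set list joined some proximal clusters of the replicates. In it 18 members held 2 or more clusters of replicate 1 and 21 held 2 or more of replicate 2, with at most 3 in each case. Such joined clusters were not counted on the rest of X or over the whole list. The replicate-set list covered 26.4% of the window, against 16.9% of the rest of X, a ratio of 1.56. Of its 5 regions marked as depleted, 0 lay on X.

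The strongest values of that list in the window had no counterpart in either replicate. The 5 highest members lay between X 21759912 and 21769431, a stretch of 9.52 kb with no cluster in replicate 1 and none in replicate 2. The highest was X 21768431 to 21769431 at 3.37, followed by X 21765178 to 21766212 at 2.83 and X 21759912 to 21760912 at 2.69. Those at X 21762312 to 21763312 (1.96) and X 21766650 to 21768351 (1.77) made up the 5. 3 of the 5 were 1001 bp wide, the smallest width among the members. Except for the highest, these sites were chosen after their values had been seen.

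Most of these values recurred elsewhere in the list. The value 3.37 was shared by 13 clusters of the replicate-set list, 2.83 by 16 and 2.69 by 22, to within 9 decimals, and 4 of the 5 highest members held a repeated value. Repeated values were held by 116 of the 189 members found in neither replicate (61.4%), 39 of the 96 found in 1 (40.6%) and 14 of the 118 found in both (11.9%). Over the whole list these shares were 65.2%, 41.4% and 11.7%. The number of reads behind a repeated value was not tested. The 31 members with a value of at least 1 were 7.69% of the 403 members. Such a value was held by 55 of 1359 clusters on the rest of X and by 15.3% of the whole list. Of the 31 members, 17 were found in both replicates, 5 in 1 and 9 in neither. This split was not computed for the rest of X or the whole list. All 9 that were found in neither lay in the inner covered stretch, which held 23 of the 31, and 14 of 22 without them.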

How the data were processed

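Su(var)3-7 ChIP-seq of third-instar Oregon-R larvae was analysed from 3 deposited cluster lists, 1 for each of 2 ChIP replicates and 1 for the replicate set. The submitters' processing notes name Bowtie 0.12.7, a read aligner, and coordinates are on FlyBase release 5, per the file headers. No source used here gives the cluster caller, its threshold or how replicates were combined. The score column of the deposited lists was taken as log2 of the authors' ChIP-to-input enrichment, because repeated values lay exactly 1 apart. The lists hold no counts, so depth and mappability are unknown.

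Cover was the percent of bases under at least 1 cluster. A replicate-set cluster was found in a replicate if at least 1 bp overlapped. Clusters on X, 2L and 3L were assigned to a window by start, and on 3R by end. Python 3.11.15, numpy 2.4.6, pandas 2.3.3 and scipy 1.17.1 were used, and the measures were tested on simulated data. Named regions were the 10 highest members found in both replicates, the 10 widest, the 5 nearest the end, those at the position limit, the highest found in neither, the 3 longest gaps and any depleted region. Members, measures and lists were chosen with earlier results of these data known.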

Additional observations from a re-analysis of the deposited data

How the results depend on the processing

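The ratio of cover between the proximal 4 Mb and the rest of X stayed above 1 under every alternative run. It was 1.79 to 1.89 with 1 replicate left out, 1.56 in the replicate-set list and 2.29 in the 50% of each list with higher values. The difference in median log2 value (0.062) was positive under every alternative run. It was 0.057 to 0.068 with 1 replicate left out, 0.018 in the replicate-set list, 0.13 with a 2 Mb window, 0.037 with a 6 Mb window and 0.012 ± 0.035 (SD, n = 2) in those 50%, where it was smaller than the spread between replicates. The ratio of median widths (1.07) was 1.05 to 1.08 with 1 replicate left out, 1.09 in the replicate-set list, 1.11 both with a 2 Mb window and in those 50%, and 1.12 with clusters closer than 1 kb joined. The share of members found in both replicates (29.3%) was 35.6% in a 2 Mb window, 24.6% when at least 50% of the member had to be covered and 66.7% among members of at least 2 kb. These alternative shares were not computed for the rest of X or the whole list. The overlap of the replicates by bases (55.8%) was 64.6% in a 2 Mb window, 53.2% in a 6 Mb window, 56.4% in those 50% and 56.4% with close clusters joined. The causes of these shifts were not tested. No paired analysis was possible because the input libraries, which share replicate numbers with the ChIP libraries, have no list of their own. The proximal window and the rest of X were compared within each replicate throughout. Unknown depth limits all values, and a stretch free of clusters need not be free of Su(var)3-7.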
